A study of Mus musculus with 16 samples.

Results

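The genes described here are 36 genes of the cell cycle and mitosis, followed in liver RNA from fed and fasted mice on 2 diets. They were taken from a list of symbols matched to the Ensembl identifiers of the count table, and 36 of 36 were found among its 46078 genes. By role they fell into 12 genes of G1 and S phase entry, 12 of DNA replication and 12 of G2 and mitosis. Livers came from male mice that were 8 weeks old when the diets began, per the study's methods, which give the strain as C57BL6/J, while the labels spell it C56B6/J. For 16 weeks the mice ate either a diet with 60% of its calories from fat (HFD) or the control diet (CD), and livers were taken from fed mice or after a 16 h fast. This gave 4 groups of 4 libraries, called CD fed, CD fast, HFD fed and HFD fast, with 1 library per mouse. No allele or drug distinguished the groups, and whole liver was used, so that hepatocytes and all other liver cells contributed RNA. The diet is a model of obesity from overfeeding.

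A dividing cell passes through G1, copies its DNA in S phase, and separates the copies in mitosis after G2. D-type cyclins with Cdk4 and Cdk6 start the process by relieving the block that retinoblastoma proteins place on E2F factors, E2F factors switch on the genes of DNA synthesis, and cyclin B with Cdk1 drives mitosis. In the adult liver most hepatocytes rest outside the cycle, many are polyploid, and division can resume after injury or loss of tissue, while resident macrophages, endothelial cells and other cells of the liver also renew. RNA of mitotic genes is made in G2 and mitosis and is scarce in resting cells.

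The level of these genes differed by role. Library totals ranged from 41364448 to 57583153 counts, and levels are given as CPM (the count scaled to a fixed library total), or as CPM per kilobase of exon where genes are compared. In CD fed livers the median level was 1.73 CPM per kb for the G1 genes, 1.29 for the replication genes and 0.372 for the mitosis genes. The highest was Pcna, the sliding clamp of DNA polymerases, at 8.63 ± 0.478 CPM per kb (SD, n = 4), close to Cdk4 at 7.86 ± 0.671 and Ccnd1 (cyclin D1) at 7.46 ± 3.23. These levels overlapped within their SD. The lowest were Bub1, a kinase of the spindle checkpoint, at 0.0704 ± 0.0295 and Cdc6, which helps to load the replicative helicase, at 0.0428 ± 0.00763 CPM per kb.

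Low counts limited the mitosis genes most. All 36 genes passed the filter on low counts, and 14 of them had a mean under 100 counts per library, 11 of which were mitosis genes, 2 G1 genes and 1 a replication gene. No gene was at 0 in any library, but Cdc6, Ccnb1 (cyclin B1), Aurkb (the kinase of the chromosomal passenger complex) and Bub1 each had a library with 3 counts or fewer. Bub1 had 25, 12, 20 and 10 counts in the CD fed libraries and 4, 2, 1 and 4 in the CD fast libraries. Exons of 13 of the genes share bases with another annotated gene, the largest overlap being 1100 bases between Ccnd1 and LTO1, and the strand setting of the counting is not given in the sources used here. Ccnd3 overlaps Bysl, Cdk4 overlaps Tspan31, Ccna2 overlaps Exosc9 and Mcm7 overlaps Ap4m1, Cops6, Mir93 and Mir25. Except for Mir93 and Mir25 these neighbours lie on the opposite strand, and the study's methods give a stranded setting for the alignment. How reads in the shared bases were counted is not known, so values of these genes may have gained or lost such reads. Processed copies of Pcna, Ccnd3, Ccnb1 and Ccnb2 held at most 7 counts in any library.

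A pair of libraries stood apart from the other libraries of their groups, the libraries numbered 4 of HFD fed and of HFD fast. Ccnd1, the cyclin that mitogens induce in G1, was at 18.9, 27.1, 30.0 and 157 CPM in HFD fed and at 58.7, 31.8, 45.3 and 207 CPM in HFD fast livers. Library 4 was thus 6.19 times the mean of the other 3 libraries in HFD fed and 4.56 times in HFD fast. Over the mitosis genes, the level in library 4 was a median of 2.83 times the mean of the other 3 in HFD fed and 3.10 times in HFD fast. It was the highest of its group in 11 of 12 and 12 of 12 mitosis genes. The replication genes separated these libraries, with a median ratio of 1.06 in HFD fed 4, the highest in 2 of 12 genes, and of 2.10 in HFD fast 4, the highest in 11 of 12. The stellate marker sum was also highest in these libraries, at 566 CPM in HFD fed 4 and 548 CPM in HFD fast 4, against 380 to 454 CPM in the other 6 HFD libraries. Sums of the cholangiocyte markers (39.4 and 40.3 CPM) and of the T and NK cell markers (4.94 and 8.10 CPM) were also the highest of their groups in both libraries, and those of hepatocyte, B and plasma cell, erythroid precursor, neutrophil and macrophage markers in HFD fed 4. With all libraries the median difference of the cholangiocyte markers between HFD fed and CD fed was 0.61 on the log2 scale and without both libraries numbered 4 it was -0.11, and in HFD fasting it was -0.37 and 0.24. The part of these cells in the result was not tested. Within other groups, CD fed 1 was the highest library in 11 of 12 mitosis genes and CD fast 2 in 10 of 12 replication genes. Because of these libraries, the calls in HFD livers are given below in all libraries and again in a fit without both libraries numbered 4.

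**Figure D1:**
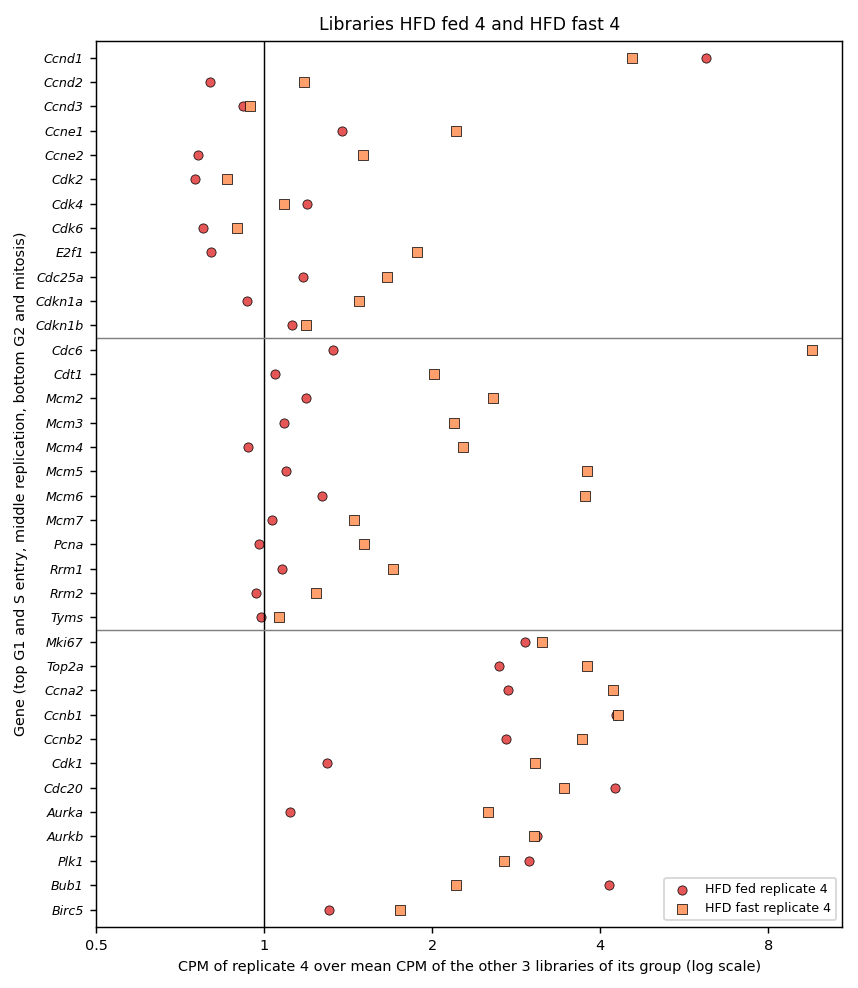
CPM of library 4 divided by the mean CPM of the other 3 libraries of its group (x axis, log scale) for each of the 36 genes (y axis), in HFD fed (circles) and HFD fast (squares). Mitosis genes lie at medians of 2.83 and 3.10, while replication genes lie near 1 in HFD fed 4 and at a median of 2.10 in HFD fast 4.

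**Figure D2:**
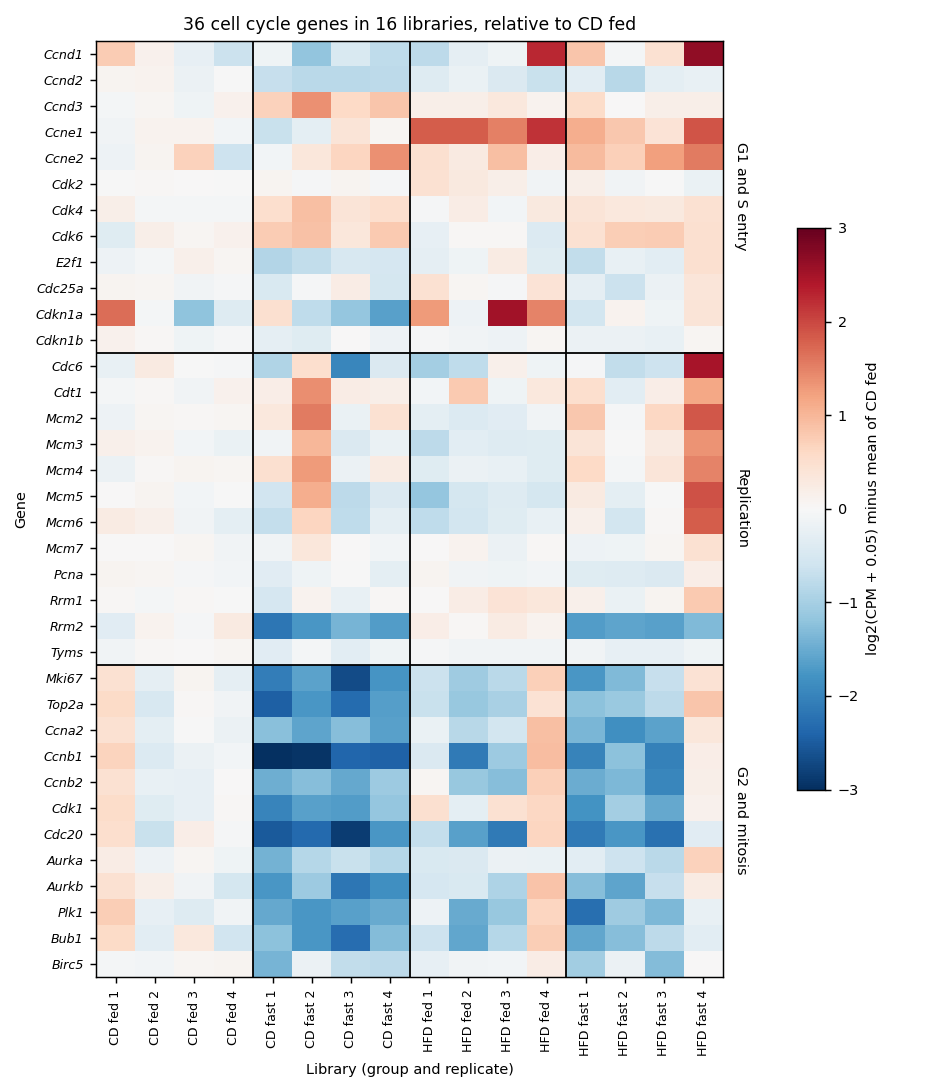
Level of each gene (rows) in each library (columns) as log2(CPM + 0.05) minus the mean of the CD fed libraries, with the colour scale limited to 3 in either direction. The mitosis block is blue in the 4 CD fast libraries, and the last columns of HFD fed and HFD fast are redder than their neighbours.

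The response to fasting was first examined in CD livers, where the mitosis genes were lower as a group. Of 12 mitosis genes, 11 fell by edgeR's quasi-likelihood test with an adjusted p under 0.05, and in 12 of 12 the 4 CD fast libraries lay below the 4 CD fed libraries. Over all 36 genes 17 changed, 3 upward and 14 downward, where 25.2% of all 15075 tested genes changed (13.7% upward and 11.5% downward). Libraries of CD fast lay wholly below those of CD fed in 12.3% of all tested genes. At an unadjusted p under 0.05 it was 12 of 12 mitosis genes and 37.6% of all tested genes. The median log2 change was -1.97 in the mitosis genes, -0.05 in the replication genes, -0.13 in the G1 genes and -0.01 over all tested genes. RNA of whole liver cannot tell fewer cells of a kind from less RNA per cell, and p-values measure the spread between the libraries, each of 1 mouse.

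Mki67 (ENSMUSG00000031004, chr7:135689784-135716361 in GRCm38, minus strand), whose product Ki-67 coats mitotic chromosomes and marks cycling cells, was at 6.42, 3.88, 4.98 and 3.91 CPM in CD fed and at 1.08, 1.51, 0.689 and 1.35 CPM in CD fast livers. Every CD fast library was below every CD fed library, a 4.16-fold fall (log2 fold change -2.06, SE 0.48, adjusted p = 0.00598). Top2a (ENSMUSG00000020914, chr11:98992943-99024189, minus strand), the topoisomerase that untangles replicated chromosomes, was at 3.63, 1.72, 2.47 and 2.23 CPM in CD fed and at 0.401, 0.691, 0.453 and 0.740 CPM in CD fast livers. It fell 4.40-fold without overlap (log2 -2.14, SE 0.50, adjusted p = 0.00598).

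The cyclins and the kinase of mitotic entry fell with them. Cdk1 (ENSMUSG00000019942, chr10:69335146-69352938, minus strand), the mitotic cyclin-dependent kinase, was at 2.84, 1.48, 1.62 and 1.98 CPM in CD fed and at 0.448, 0.588, 0.571 and 0.827 CPM in CD fast livers, a fall of 3.24-fold (log2 -1.70, SE 0.39, adjusted p = 0.00543). Its partner Ccnb1 (ENSMUSG00000041431, chr13:100778650-100786570, minus strand) had the largest change among the 36 genes, from 1.49, 0.686, 0.811 and 0.875 CPM to 0.0707, 0.0767, 0.138 and 0.131 CPM (log2 -3.16, SE 0.73, adjusted p = 0.00553). These CD fast values stand for 3, 3, 7 and 6 counts, so that the size of the fall is imprecise. Ccnb2 (cyclin B2) fell by 1.45 on the log2 scale (SE 0.50, adjusted p = 0.0446), and Ccna2 (cyclin A2, which acts in S phase and G2) fell by 1.55 (SE 0.49, adjusted p = 0.0302).

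Genes of spindle assembly and chromosome separation behaved alike. Cdc20, which activates the ligase that starts anaphase, went from 2.64, 1.15, 2.16 and 1.82 CPM to 0.283, 0.333, 0.217 and 0.522 CPM (log2 -2.51, SE 0.60, adjusted p = 0.00736). Bub1 fell by 2.26 (SE 0.63, adjusted p = 0.0166), Aurkb by 2.12 (SE 0.56, adjusted p = 0.0122) and Plk1, a kinase of spindle and centrosome, by 1.89 (SE 0.53, adjusted p = 0.0168) on the log2 scale. Aurka, a kinase of the spindle poles, had a smaller fall of 0.98 (SE 0.30, adjusted p = 0.0253). Birc5 (survivin, a partner of Aurkb) was at 1.77, 1.72, 1.90 and 1.93 CPM in CD fed and at 0.660, 1.61, 1.08 and 1.04 CPM in CD fast livers, and its change of -0.74 (SE 0.29) missed the threshold of edgeR (adjusted p = 0.0698) but passed those of DESeq2 and limma-voom.

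**Figure D3:**
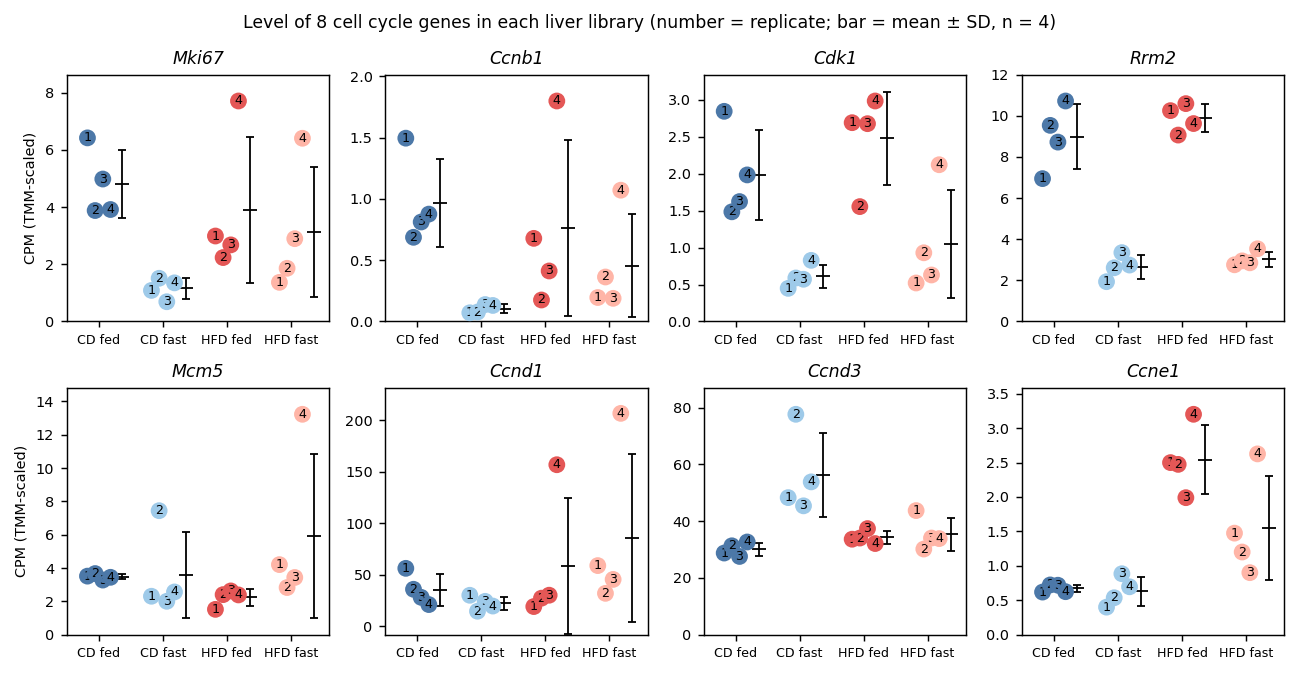
CPM of 8 genes in each library (numbered points, y axis) by group (x axis), with the group mean ± SD (n = 4). Mki67, Ccnb1 and Cdk1 are lower in all 4 CD fast libraries than in any CD fed library, Rrm2 is lower in both fasted groups, and HFD fed 4 and HFD fast 4 are the top points for Ccnd1.

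The promoters of these genes are shown because the mitosis genes moved together while most replication genes did not. Promoters of mitotic genes are known for CCAAT boxes, bound by the factor NF-Y, and for the cell cycle homology region (CHR), bound by the DREAM and MMB complexes, and promoters of replication genes for E2F sites. A window from 250 bases before to 50 bases after the start of transcription was found in RefSeq (GRCm38.p6) for 30 of the 36 genes, as 33 windows, and none was used for Aurkb, Ccna2, Ccnd1, Ccnd2, Ccne2 and Mcm4. Windows were searched on both strands for CCAAT boxes. The CHR letters were TTTGAA with the variant spelled TTCGAA. The E2F letters were TTCCCGC with the variants spelled TTCGCGC, also TTGCCGC, and finally TTGGCGC. CHR letters were found in 8 of 10 mitosis genes, 2 of 11 replication genes and 0 of 9 G1 genes, against 21.7% of all 27025 genes with a window. The mitosis genes without them were Birc5 and Ccnb1, and Ccnb1 had the largest fall of the 36 genes in CD livers. The replication genes with them were Mcm2 and Mcm7, which missed the threshold there, so the letters did not follow the fall gene by gene. CCAAT was found in 9 of 10, 8 of 11 and 4 of 9 genes, against 41.1% of all genes. E2F letters were found in 3 of 10 mitosis genes, 8 of 11 replication genes and 2 of 9 G1 genes, against 10.9% of all genes. CHR and CCAAT letters stood together in 8 of 10 mitosis genes and in 8.6% of all genes, and E2F letters overlapped CCAAT letters in Ccnb1 and Mcm7. A match is a description of the letters, not of binding.

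The stretch from 150 bases before the start of transcription is given below for 4 mitosis genes that fell in CD livers and for a pair of replication genes, of which Mcm6 did not change and Rrm2 did. Capitals mark CCAAT, CHR and E2F letters on either strand, and positions are counted from the start site as 0, with negative numbers before it. All but Rrm2 lie on the minus strand.
Ccnb2, chr9:70421545-70421704: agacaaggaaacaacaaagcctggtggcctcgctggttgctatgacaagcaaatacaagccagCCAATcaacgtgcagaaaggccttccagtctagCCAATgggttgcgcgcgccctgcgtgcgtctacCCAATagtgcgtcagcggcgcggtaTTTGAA
Cdk1, chr10:69352903-69353062: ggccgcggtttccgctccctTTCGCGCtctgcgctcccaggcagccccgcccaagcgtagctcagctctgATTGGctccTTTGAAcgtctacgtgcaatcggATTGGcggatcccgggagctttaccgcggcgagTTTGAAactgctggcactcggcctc
Cdc20, chr4:118437334-118437493: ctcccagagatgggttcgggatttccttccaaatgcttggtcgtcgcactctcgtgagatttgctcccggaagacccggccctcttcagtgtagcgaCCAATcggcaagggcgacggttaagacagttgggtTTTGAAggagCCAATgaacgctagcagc
Top2a, chr11:99024180-99024339: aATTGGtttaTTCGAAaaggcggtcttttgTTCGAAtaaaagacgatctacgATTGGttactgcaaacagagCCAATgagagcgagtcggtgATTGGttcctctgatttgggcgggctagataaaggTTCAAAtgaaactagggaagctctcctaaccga
Mcm6, chr1:128359696-128359855: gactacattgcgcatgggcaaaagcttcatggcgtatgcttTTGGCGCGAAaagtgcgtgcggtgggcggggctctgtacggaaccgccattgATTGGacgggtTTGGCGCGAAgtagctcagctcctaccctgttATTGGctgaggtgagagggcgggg
Rrm2, chr12:24708104-24708263: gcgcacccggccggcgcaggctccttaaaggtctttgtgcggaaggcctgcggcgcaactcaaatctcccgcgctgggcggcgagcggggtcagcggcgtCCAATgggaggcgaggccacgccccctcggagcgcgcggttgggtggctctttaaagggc

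In Ccnb2 the 3 CCAAT boxes begin 33 bases apart, at -87, -54 and -21, and CHR letters follow at 4. Cdk1 carries CHR letters at -71 and -15 beside CCAAT letters at -80 and -48, and Cdc20 has CHR letters at -18 between CCAAT letters at -53 and -8. In Top2a the CHR letters nearest the start are at -23. Mcm6 holds E2F letters in overlapping pairs at -109 and -106 and at -46 and -43, with CCAAT letters at -57 and -14 and no CHR letters in its window. Rrm2 has CCAAT letters at -50, and its E2F letters at -235 lie before the stretch shown.

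**Figure D4:**
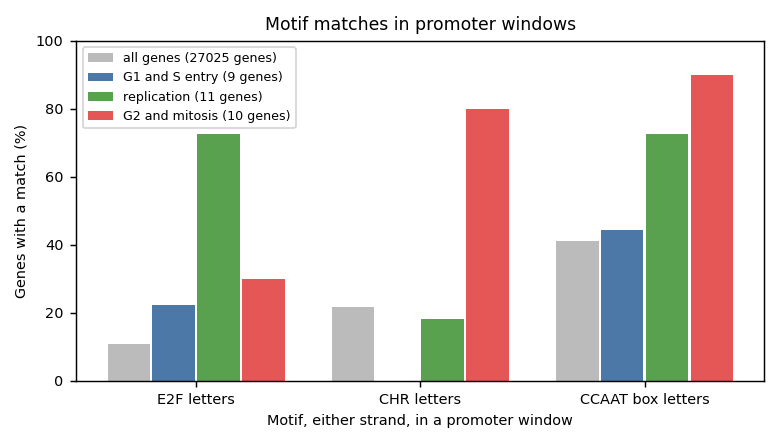
Percent of genes (y axis) whose promoter window holds E2F, CHR or CCAAT letters on either strand (x axis), for all genes with a window and for the 3 classes. The mitosis bar stands highest for CHR letters (80.0%) and CCAAT letters (9 of 10 genes), and the replication bar for E2F letters (72.7%).

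Among the replication genes 1 of 12 changed with fasting in CD livers. Rrm2 (ENSMUSG00000020649, chr12:24708241-24714146, plus strand), the subunit of ribonucleotide reductase that limits the supply of deoxynucleotides and is made in S phase, was at 6.94, 9.53, 8.72 and 10.7 CPM in CD fed and at 1.93, 2.61, 3.35 and 2.74 CPM in CD fast livers. It fell 3.37-fold with no overlap (log2 -1.75, SE 0.16, adjusted p = 5.78e-06), the smallest p among the 36 genes in this comparison. Its partner subunit Rrm1 was at 10.6 ± 0.296 CPM in CD fed and 9.70 ± 1.80 CPM in CD fast livers (SD, n = 4; log2 -0.13, adjusted p = 0.624). Pcna was at 20.7 ± 1.15 and 18.2 ± 1.95 CPM (log2 -0.19, adjusted p = 0.285) and Tyms, which makes thymidylate, at 7.89 ± 0.439 and 6.82 ± 0.662 CPM (log2 -0.21, adjusted p = 0.0766).

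The Mcm2 to Mcm7 genes, which encode the subunits of the replicative helicase, had changes from -0.18 (Mcm6) to 0.68 (Mcm2), and all of them missed the threshold. Mcm6 was at 7.0, 6.6, 5.46 and 4.86 CPM in CD fed and at 3.56, 9.34, 3.49 and 4.81 CPM in CD fast livers. The high CD fast value is that of library 2, in which Mcm2 was at 12.7 CPM against 3.76 to 5.88 CPM in the other 3 CD fast libraries. The licensing genes Cdt1 and Cdc6 also missed the threshold, with changes of 0.61 (adjusted p = 0.186) and -0.63 (adjusted p = 0.618).

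The G1 genes split, with 3 that rose and 2 that fell in CD livers. Ccnd3 (cyclin D3; ENSMUSG00000034165, chr17:47505051-47599691, plus strand) was at 28.8, 31.3, 27.6 and 32.7 CPM in CD fed and at 48.3, 77.6, 45.4 and 53.8 CPM in CD fast livers, and rose 1.87-fold (log2 0.90, SE 0.15, adjusted p = 0.000523). The kinases that D cyclins bind rose too, Cdk4 by 0.58 (SE 0.11, adjusted p = 0.00145) and Cdk6 by 0.69 (SE 0.14, adjusted p = 0.00277) on the log2 scale. In all of these genes the fasted libraries lay above the fed libraries.

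Ccnd2 (cyclin D2) moved the other way, from 10.6, 10.7, 8.90 and 9.91 CPM to 6.18, 5.73, 5.73 and 5.77 CPM (log2 -0.78, SE 0.13, adjusted p = 0.000543), again with no overlap. E2f1, the transcription factor of S phase genes, fell by 0.65 (SE 0.21, adjusted p = 0.0363). Ccnd1 was at 56.1, 35.7, 27.9 and 20.9 CPM in CD fed and 29.9, 14.4, 24 and 19.4 CPM in CD fast livers, where the groups overlapped (log2 -0.68, SE 0.65, adjusted p = 0.478). The inhibitor gene Cdkn1a (p21) ranged from 5.73 to 42.7 CPM among CD fed libraries and from 4.29 to 18.6 CPM among CD fast libraries (log2 -0.96, SE 0.61, adjusted p = 0.268). Cdkn1b (p27) was at 17.4 ± 1.28 and 15.2 ± 1.73 CPM (SD, n = 4; log2 -0.19, adjusted p = 0.137). The other 4 G1 genes, Ccne1 and Ccne2 (E cyclins), Cdk2 and the phosphatase gene Cdc25a, had changes from -0.17 to 0.64 that missed the threshold.

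When the 16 libraries were left out in turn, 12 of the 17 calls in CD livers held throughout. The call was lost for Ccnb2 in 9 fits, for Ccna2 and E2f1 in 5 each, for Aurka in 4 and for Plk1 in 1, nearly always when a CD fed or CD fast library was left out (Plk1 without CD fed 1), and the highest adjusted p of these fits was 0.112 for Ccnb2.

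Other genes of the cell cycle were listed by role to set beside the 36. The lists were made with earlier results of these data known, so that they are not independent support. Their shares are read against the 25.2% of all tested genes that changed in CD livers. Of 65 tested G2 and mitosis genes 36 changed (55.4%), 35 downward and 1 upward, with a median log2 change of -1.07. An example is Kif11, a spindle motor, which fell from 1.69 ± 0.398 to 0.629 ± 0.117 CPM (SD, n = 4; log2 -1.42, SE 0.22, adjusted p = 0.000381). The exception was Mybl2, a factor of the MMB complex, with a rise of 0.83 (adjusted p = 0.0292), named after its value was seen. Of 47 replication genes 4 rose and 5 fell, with a median of -0.16, and the share of 19.1% lay below that of all genes. Dbf4, which activates the kinase that fires origins, fell by 1.29 (SE 0.23, adjusted p = 0.00101). Of 30 G1 genes 2 rose and 2 fell, with a median of 0.00, a share of 13.3% that was also below that of all genes, and Gadd45a, a stress gene that restrains the cycle, fell by 1.55 (SE 0.30, adjusted p = 0.00168). Among 20 p53 target genes 2 rose and 6 fell in CD livers (40.0%), with a median of -0.30.

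Markers of other liver cells moved in the same comparison, where 11.5% of all tested genes fell. Of 10 markers of sinusoidal endothelial cells 7 fell (median log2 change -0.46), of 10 of macrophages and Kupffer cells 4 fell (-0.60), and of 10 of stellate cells 3 fell (-0.43). Their summed level went from 404 to 456 CPM in CD fed to 280 to 349 CPM in CD fast libraries for endothelial cells, from 330 to 603 to 216 to 362 CPM for macrophages, and from 369 to 484 to 235 to 367 CPM for stellate cells. Of 10 hepatocyte markers 1 fell (0.04), as did 1 of 10 of T and NK cells (-0.14) and 1 of 6 tested of erythroid precursors (-0.05). None of 7 markers of B and plasma cells, 3 tested of neutrophils and myeloid precursors or 5 tested of cholangiocytes was called by edgeR, with 0, 1 and 2 at an unadjusted p under 0.05. Defining genes of blood precursors were scarce, as Ctsg and Rhag were at 0 in all 16 libraries and Mpo had at most 3 counts. The part of these cells in the fall of the mitosis genes was not tested.

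The response to fasting was then examined in HFD livers, where 5 of the 36 genes changed, 4 upward and 1 downward, and 8.86% of all tested genes changed (4.78% upward and 4.07% downward). Libraries of the 2 groups were apart in 6 members upward and 1 downward, against 8.02% and 8.66% of all tested genes. Rrm2 was at 10.3, 9.06, 10.6 and 9.62 CPM in HFD fed and at 2.76, 2.95, 2.85 and 3.53 CPM in HFD fast livers, a 3.27-fold fall without overlap (log2 -1.71, SE 0.16, adjusted p = 4.38e-05). Cdk6 rose from 18.3, 22, 22.1 and 16.2 CPM to 29.9, 35.9, 36.4 and 30.4 CPM (log2 0.76, SE 0.14, adjusted p = 0.00601), also without overlap. Both calls held in each fit that left out 1 library and in the fit without both libraries numbered 4, where the changes were -1.80 and 0.71. Cdkn1a was at 32.5, 12.1, 76.4 and 37.5 CPM in HFD fed and at 9.05, 14.4, 12.3 and 17.6 CPM in HFD fast livers. Its change was the lowest of the G1 genes (log2 -1.57), but its groups overlapped and edgeR did not call it. Cdkn1b was at 16.8, 16.1, 15.7 and 18.2 CPM and at 15.4, 15.4, 14.9 and 18.1 CPM, also without a call.

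The other 3 calls were helicase subunits. Mcm2 was at 3.47, 3.22, 3.41 and 3.99 CPM in HFD fed and at 7.51, 4.17, 6.65 and 15.7 CPM in HFD fast livers (log2 1.27, SE 0.37, adjusted p = 0.0416). Mcm3 (log2 1.05, SE 0.31, adjusted p = 0.0460) and Mcm4 (1.01, SE 0.30, adjusted p = 0.0491) were just inside the threshold. All HFD fast libraries were above all HFD fed libraries for these genes and for Mcm5, whose change of 1.41 (SE 0.47) missed it (adjusted p = 0.0744).

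Mcm6 was at 3.45, 4.05, 4.57 and 5.10 CPM in HFD fed and at 6.62, 4.01, 6.10 and 20.9 CPM in HFD fast livers (log2 1.13, adjusted p = 0.107), with HFD fast 4 far above the rest. In the fit without both libraries numbered 4 the changes of Mcm5 and Mcm6 were 0.68 (adjusted p = 0.324) and 0.47 (adjusted p = 0.391). Those of Mcm2, Mcm3 and Mcm4 were then 0.86, 0.71 and 0.59, with adjusted p of 0.140, 0.163 and 0.210. When libraries were left out in turn, the call was lost 11 times of 16 for Mcm2 and 13 times for Mcm3 and Mcm4, so that they rest on values close to the threshold.

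No mitosis gene was called by edgeR in this comparison, with 1 of 12 at an unadjusted p under 0.05 (25.6% of all tested genes) and 1 called by each of DESeq2 and limma-voom. The median log2 change was -0.75, and 10 of 12 changes were below 0. Cdk1 was at 2.69, 1.55, 2.68 and 2.98 CPM in HFD fed and at 0.521, 0.929, 0.629 and 2.12 CPM in HFD fast livers (log2 -1.23, SE 0.37, adjusted p = 0.0503). Of the HFD fast libraries, HFD fast 4 alone reached the HFD fed range. Mki67 was at 2.99, 2.23, 2.68 and 7.70 CPM in HFD fed and at 1.37, 1.86, 2.89 and 6.40 CPM in HFD fast livers (log2 -0.32, adjusted p = 0.698). Top2a was at 1.5, 1.07, 1.21 and 3.32 CPM and at 0.998, 1.09, 1.38 and 4.38 CPM (log2 0.14, adjusted p = 0.874), so that its groups overlapped with or without the libraries numbered 4.

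Without both libraries numbered 4, 6 of 35 tested genes were called, where 6.81% of all tested genes were. Cdk1 fell by 1.73 (adjusted p = 0.00786), Ccna2 by 1.17 (adjusted p = 0.0231), Ccne1 by 0.96 (adjusted p = 0.0318) and Pcna by 0.35 (adjusted p = 0.0435) on the log2 scale, beside Rrm2 and Cdk6. The mitosis genes had a median change of -0.72 over the 11 tested, as Bub1 did not pass the filter. Mki67 was at -0.37 (adjusted p = 0.486) and Top2a at -0.13 (adjusted p = 0.824) in this fit, so that the sign of Top2a turned.

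Markers of other cells were set beside these values in HFD livers too, where 4.07% of all tested genes fell and 4.78% rose. No marker of macrophages, endothelial cells or stellate cells was called by edgeR (0, 1 and 0 at an unadjusted p under 0.05), and their median changes were -0.09, 0.01 and -0.03. Of the hepatocyte markers 2 of 10 fell (median -0.39), of the erythroid markers 1 of 6 rose and 1 fell (0.43), and of the neutrophil and myeloid precursor markers 1 of 3 rose (1.28). None of 10 markers of T and NK cells (0.52), 7 of B and plasma cells (0.72) or 5 of cholangiocytes (-0.37) was called by edgeR, with 1, 2 and 1 at an unadjusted p under 0.05. In the fit without both libraries numbered 4 the neutrophil genes S100a8, S100a9 and Prtn3 rose, as did Ighm, and 1 hepatocyte marker fell, where 6.81% of all tested genes were called. The part of these cells in the result was not tested.

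**Figure D5:**
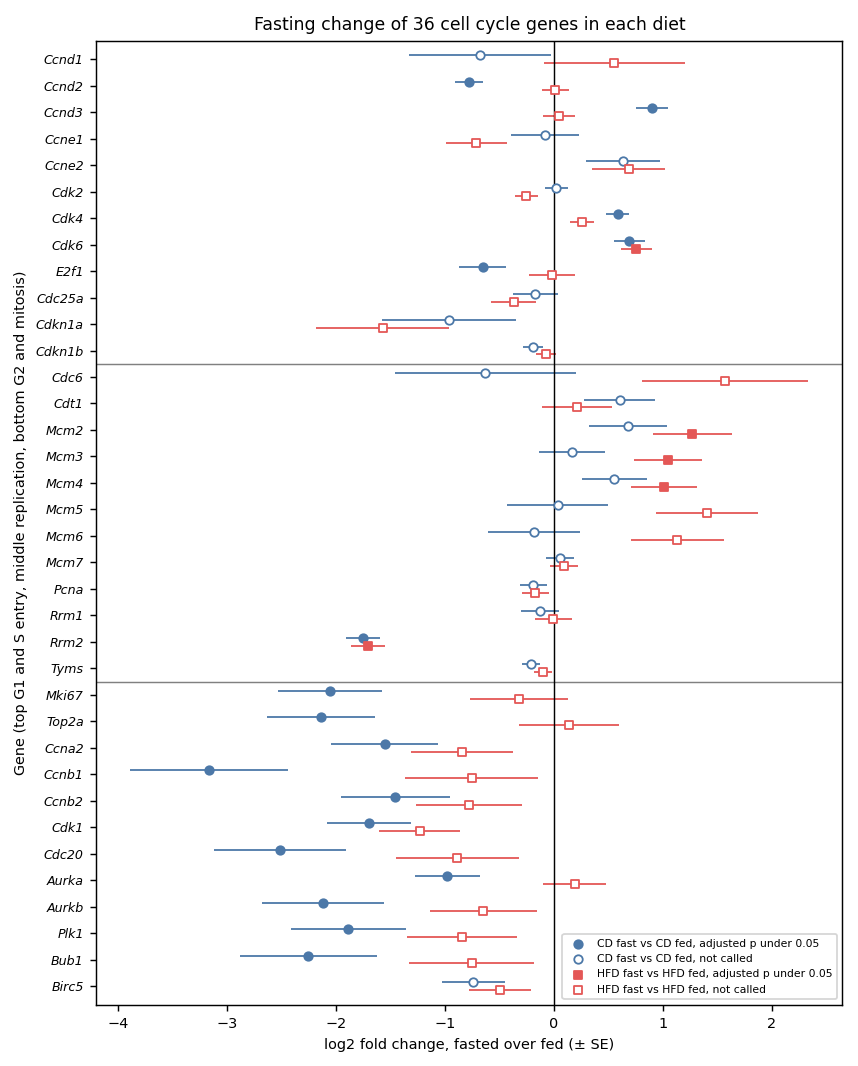
Fitted log2 fold change of fasted over fed livers (x axis, ± SE) for each gene (y axis) in CD (circles) and HFD (squares), filled where the adjusted p was under 0.05. The mitosis genes lie at a median of -1.97 in CD and -0.75 in HFD, and Rrm2 lies at -1.75 and -1.71.

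Among the other cell cycle genes 6 of 142 tested were called in HFD livers, a share of 4.2% that was below the 8.86% of all tested genes. H2afz, a histone variant, fell by 0.62 (SE 0.12, adjusted p = 0.00648), Rbl2, a pocket protein of the DREAM complex, by 0.36 (adjusted p = 0.0140), and Dbf4, Spc25 and Nek2 also fell. Chek1, the replication checkpoint kinase, rose by 2.06 (SE 0.49, adjusted p = 0.0183). It was at 0.278 ± 0.118 CPM in HFD fed and 1.17 ± 1.0 CPM in HFD fast livers (SD, n = 4). In the fit without both libraries numbered 4 the changes were -0.71 for H2afz, -0.37 for Rbl2 and 1.61 for Chek1, and all of these calls held (adjusted p = 0.0112, 0.0351 and 0.0174). Of 141 tested genes 9 were then called (6.4%, against 6.81% of all tested genes). Among the 20 p53 targets 1 rose and 3 fell with all libraries and also without those libraries.

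The effect of diet was then compared in fed livers. HFD changed 1 of the 36 genes in the fed state, where 7.5% of all tested genes changed (3.28% higher and 4.22% lower). Libraries were apart in 1 member upward and 5 downward, against 7.22% and 8.51% of all tested genes. The latter were Ccnd2, Mcm3, Mcm4, Mcm5 and Aurka, none of them called by edgeR, though Ccnd2 (log2 -0.42, adjusted p = 0.0546) was called by DESeq2 and limma-voom and when HFD fed 2 or HFD fast 2 was left out. Ccne1 (cyclin E1; ENSMUSG00000002068, chr7:38097984-38107534, minus strand), which with Cdk2 brings cells into S phase, was at 0.620, 0.723, 0.719 and 0.625 CPM in CD fed and at 2.50, 2.47, 1.99 and 3.20 CPM in HFD fed livers. It was 3.78-fold higher in HFD fed livers without overlap (log2 1.92, SE 0.30, adjusted p = 0.00172), and it held in each fit that left out 1 library. Without both libraries numbered 4 it was 1.79 (adjusted p = 0.000921). Its relative Ccne2 was at 0.610 ± 0.255 and 0.830 ± 0.205 CPM (SD, n = 4; log2 0.44, adjusted p = 0.486), and without those libraries its difference was 0.53 (adjusted p = 0.406).

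No mitosis or replication gene was called by edgeR in fed livers, with 0 of either class at an unadjusted p under 0.05 (22.9% of all tested genes) and 0 by DESeq2 or limma-voom. The mitosis genes had a median change of -0.31. The result differed without both libraries numbered 4, where 4 of 35 members and 7.27% of all tested genes were called. Beside Ccne1, Top2a was lower by 0.99 (adjusted p = 0.0381) and Cdc20 by 1.48 (adjusted p = 0.0270) in HFD fed livers, Cdk2 was 0.31 higher (adjusted p = 0.0430), and the median of the 11 tested mitosis genes was -0.74. Mki67 was then at -0.87 (adjusted p = 0.0754). Other cell cycle genes with a call in all 16 libraries were Spc25, a kinetochore subunit (log2 1.23, SE 0.25, adjusted p = 0.00800), Ccng1 (0.38, adjusted p = 0.0300), Tubb5 (-0.62, adjusted p = 0.0306), Gmnn (0.58) and Spc24 (-0.66), which were 5 of 142 (3.5%, below the 7.5% of all tested genes). In the fit without both libraries numbered 4 Spc25 was at 1.36 (adjusted p = 0.00690), Ccng1 at 0.40 (adjusted p = 0.0377) and Tubb5 at -0.62 (adjusted p = 0.0111). In that fit 10 of 141 were called, 3 higher and 7 lower, with Gmnn still among the calls and Spc24 no longer. Of the markers, 1 of endothelial cells and 1 of T and NK cells were lower in HFD fed livers. Neither list had a call without those libraries (edgeR; 3 of each at an unadjusted p under 0.05). In that fit the hepatocyte gene Cyp3a11 was the only cell marker called by edgeR, and it was lower. The neutrophil and myeloid precursor markers had a median of -0.94, with 3 of 3 at an unadjusted p under 0.05. Medians were -0.81 for B and plasma cell (1 of 7), -0.41 for erythroid precursor (1 of 6) and -0.30 for macrophage markers (0 of 10). The part of these cells in the result was not tested. Among the p53 targets 1 was higher and 1 lower, with or without those libraries.

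In fasted livers 3 of the 36 genes differed between the diets, where 7.7% of all tested genes did (3.05% higher and 4.65% lower). Libraries were apart in 4 members upward (Ccnd1, Ccne1, Top2a and Ccnb1) and 1 downward (Ccnd3), against 6.55% and 7.45% of all tested genes. Ccne1 was again higher, at 0.401, 0.537, 0.886 and 0.696 CPM in CD fast and at 1.48, 1.20, 0.901 and 2.63 CPM in HFD fast livers (log2 1.29, SE 0.30, adjusted p = 0.0202). The highest CD fast library and the lowest HFD fast library were nearly level. Ccnd3 was lower, at 43.7, 30.2, 34.1 and 33.9 CPM in HFD fast livers against 45.4 CPM or more in CD fast (log2 -0.67, SE 0.15, adjusted p = 0.0145). It held in each fit that left out 1 library, but it was lost, as were the calls of Ccne1 and Top2a, in a fit of only the groups compared. Top2a was 3.45-fold higher in HFD fast livers (log2 1.79, SE 0.50, adjusted p = 0.0404), and its groups did not overlap.

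The fitted differences of the 12 mitosis genes between HFD fast and CD fast livers were above 0 in all libraries together, with a median of 0.92 on the log2 scale and 5 of 12 at an unadjusted p under 0.05 (25.9% of all tested genes). In the fit without both libraries numbered 4 they were below 0 in 3 of the 11 tested. Mki67 was at 1.44 (SE 0.48, adjusted p = 0.0753) and at 0.83 without those libraries (adjusted p = 0.122). Ccnb1 was at 2.09 (SE 0.76, adjusted p = 0.0997) and at 1.20 without them (adjusted p = 0.208). DESeq2 called both genes in all libraries. With edgeR, Mki67 was called when HFD fed 4 or HFD fast 1 alone was left out and with scaling by total counts. No replication gene was called (edgeR; 2 at an unadjusted p under 0.05 and 0 by DESeq2 or limma-voom). Ccnd1 was at 1.96 (SE 0.67, adjusted p = 0.0814), or 1.04 without those libraries (adjusted p = 0.0744). DESeq2 called it, as did edgeR when HFD fed 4 alone was left out, and its lowest HFD fast library, at 31.8 CPM, was above its highest CD fast library, at 29.9 CPM.

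Without both libraries numbered 4 only Ccnd3 was still called among the members between the fasted groups (-0.64, adjusted p = 0.0450), where 4.27% of all tested genes were called, with Ccne1 at 0.90 (adjusted p = 0.0518) and Top2a at 1.02 (adjusted p = 0.0594). The median of the 11 tested mitosis genes was then 0.32. The Ccne1 call was also lost without CD fast 1, CD fast 2 or HFD fast 4, and that of Top2a for 9 of the 16 libraries left out in turn. In this comparison 4 of 10 endothelial markers and 1 of 10 stellate markers were higher in HFD fast livers, and none of 10 macrophage markers was called (edgeR; 5 at an unadjusted p under 0.05, median 0.55). Without those libraries 3 endothelial markers and no stellate marker were called (edgeR; 5 of the latter at an unadjusted p under 0.05). The macrophage markers had no call by edgeR in that fit either, with 8 of 10 at an unadjusted p under 0.05 and a median of 0.56. Of the other lists, 1 of 6 erythroid precursor markers and 1 of 3 neutrophil and myeloid precursor markers were higher and 1 of 10 hepatocyte markers was lower in HFD fast livers. Prtn3 and the hepatocyte gene Tat were the calls of these lists without the libraries numbered 4. None of the T and NK cell, B and plasma cell or cholangiocyte markers was called (edgeR; 2, 0 and 0 at an unadjusted p under 0.05). Their part in the result was not tested. Of the other cell cycle genes 8 of 142 were higher and 1 lower (6.3%, against 7.7% of all tested genes), among them Incenp, the scaffold of the passenger complex (log2 0.92, SE 0.20, adjusted p = 0.0143), Smc2, a condensin subunit (0.86, adjusted p = 0.0236), and Kif20b (1.57, adjusted p = 0.0251). In the fit without both libraries numbered 4 the call of Incenp held (0.80, adjusted p = 0.0319), those of Smc2 (0.57, adjusted p = 0.0652) and Kif20b (0.96, adjusted p = 0.0619) were lost, and 2 of 141 were called. Among the p53 targets 2 were higher and 1 lower, and 1 was higher without those libraries.

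The interaction of diet and fasting, that is, the log2 change in HFD livers less the one in CD livers, tests whether the responses differ. Of the 36 genes 2 were called, where 2.59% of all tested genes were (1.23% above 0 and 1.36% below). The fasting change of Ccnd2 was -0.78 in CD and 0.01 in HFD livers, where it was at 7.58, 8.71, 7.41 and 6.32 CPM in HFD fed and at 8.0, 5.58, 8.18 and 8.54 CPM in HFD fast livers. The difference was 0.79 (SE 0.18, adjusted p = 0.0307). For Ccnd3 the change was 0.90 in CD and 0.05 in HFD livers (difference -0.86, SE 0.21, adjusted p = 0.0407).

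Neither call was firm, as that of Ccnd2 was lost for 10 and that of Ccnd3 for 11 of the 16 libraries left out in turn, and both were lost without the libraries numbered 4 (0.66, adjusted p = 0.0786, and -0.86, adjusted p = 0.0755). For the mitosis genes the interaction was above 0 in 12 of 12, with a median of 1.32, and none was called by edgeR (4 of 12 at an unadjusted p under 0.05, against 20.2% of all tested genes, 1 by DESeq2 and 0 by limma-voom). Top2a was closest, at 2.28 (SE 0.67, adjusted p = 0.0820). Without both libraries numbered 4 its interaction was 2.01 (adjusted p = 0.0271), the only call of the 35 genes tested (1.5% of all tested genes), with Mki67 at 1.69 (adjusted p = 0.0535) and Ccnb1 at 2.39 (adjusted p = 0.0804). When HFD fed 4 alone was left out, Mki67, Ccnb1 and Top2a were called beside Ccnd2 and Ccnd3. For Rrm2 the interaction was 0.04 (SE 0.22, adjusted p = 0.935). Among the other cell cycle genes Gadd45a (1.78, adjusted p = 0.0344) and Rbl2 (-0.46, adjusted p = 0.0434) were called, and among the p53 targets 1 was lower. Without the libraries numbered 4 these calls were lost (1.74, adjusted p = 0.0742, and -0.46, adjusted p = 0.0755, with no p53 target called by edgeR and 3 at an unadjusted p under 0.05). Without those libraries 1 of 141 was called (0.7%, against 1.5% of all tested genes), the mitosis gene Cenpe, with an interaction above 0. Most lists of cell markers had interactions above 0 as well. This held for 10 of 10 endothelial markers, 3 of them called (1 without those libraries), for 6 of 6 erythroid precursor markers, 1 of them called (none by edgeR without those libraries, 2 at an unadjusted p under 0.05), and for 3 of 3 neutrophil and myeloid precursor markers, 1 of them called (1 without those libraries, Prtn3). It also held for 10 of 10 macrophage, 10 of 10 stellate, 9 of 10 T and NK cell and 6 of 7 B and plasma cell markers with none called (edgeR; 5, 1, 2 and 1 at an unadjusted p under 0.05). The exceptions were the cholangiocyte markers, above 0 in 1 of 5, and the hepatocyte markers, above 0 in 3 of 10, with none called (edgeR; 0 and 2 at an unadjusted p under 0.05). The part of these cells in the result was not tested. The 4 pairwise comparisons share groups with each other and with the interaction.

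Within groups, libraries with more Mki67 also had more Top2a. After the mean of each group was subtracted from log2 CPM, Pearson's r over 16 libraries was 0.94 and Spearman's rho 0.90 (two-sided permutation within groups, p = 8e-05 and 7e-05, adjusted over 6 relations 0.00048 and 0.00042). Without HFD fast 4 and HFD fed 4, the libraries farthest from the median of Mki67, r was 0.85. With Cdk1, r was 0.72 (permutation p = 0.0140, adjusted 0.0421) and rho 0.63 (p = 0.0283, adjusted 0.0849), and r without those libraries was 0.53. With Ccnd1, r was 0.72 (permutation p = 0.0388, adjusted 0.0775) and rho 0.41 (p = 0.160, adjusted 0.240), and r was 0.23 without those libraries, so that it rested on them. The relation with Mcm5 had r = 0.58 (permutation p = 0.0713, adjusted 0.107) and rho = 0.39 (p = 0.220, adjusted 0.264), and r was 0.37 without those libraries. For Pcna r was 0.44 (permutation p = 0.259, adjusted 0.259), rho 0.27 (p = 0.411, adjusted 0.411) and r without those libraries 0.06. For Cdkn1a r was 0.30 (permutation p = 0.236, adjusted 0.259), rho 0.43 (p = 0.112, adjusted 0.224) and r without those libraries 0.30.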

How the data were processed

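RNA was sequenced from 16 whole livers, 1 library per mouse. The deposited values are raw counts per Ensembl gene, which the authors made from poly(A) libraries by alignment to GRCm38 with TopHat2 (2.0.11) and counting with featureCounts (version and strand setting not given in the sources used here). Base calling used CASAVA (1.8.4), per the submitters' processing notes.

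Counts were scaled by TMM and tested with edgeR (4.0.16) in R (4.3.3) by the quasi-likelihood test, with 1 coefficient per group and 12 residual degrees of freedom. A filter on low counts (filterByExpr) left 15075 of 46078 genes, and p-values were adjusted over all of them by Benjamini-Hochberg, with a threshold of 0.05. The common coefficient of variation was 19.2%. The test was also run on simulated counts with the same spread for every gene and no library set apart from its group. That run cannot show how the test behaves where such libraries occur or where genes differ in spread. Log2 CPM values in correlations used a prior count of 2, and libraries were permuted within groups 100000 times. Exon lengths came from GENCODE M21 and promoters from RefSeq (GRCm38.p6).

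Members, marker lists and cell cycle lists were chosen with earlier results of these data known. Full statistics are given for members with an adjusted p under 0.05 in any comparison. Values are given for Mki67, Top2a, Ccnd1, Cdk1, Pcna, Mcm6, Cdkn1a and Cdkn1b whatever they showed, though not in every comparison. Up to 3 pathway genes with the smallest p are given per comparison. Alternatives were DESeq2 (1.42.0), limma-voom (3.58.1), other scalings and filters, 2-group fits, a replicate block and leaving out each library. Leaving out both HFD libraries numbered 4 was added after seeing the data.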

Additional observations from a re-analysis of the deposited data

Results flagged for a closer look

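In groups of 4 libraries, 19 of 144 values had a highest or lowest library set apart by Dixon's criterion, which chance gives in about 1 in 20 groups. HFD fast 4 was the library set apart in 9 of them and HFD fed 4 in 3. In HFD fast 4 the values were 207 CPM for Ccnd1, 1.45 for Cdc6, 13.2 for Mcm5, 20.9 for Mcm6, 23.7 for Pcna, 4.38 for Top2a, 1.62 for Ccna2, 1.27 for Ccnb2 and 1.45 for Cdc20, each the highest of its group. In HFD fed 4 they were 157 CPM for Ccnd1, 7.70 for Mki67 and 0.830 for Aurkb.

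CD fast 2 was the highest of its group for the replication genes Cdt1 (6.42 CPM), Mcm3 (10.1 CPM) and Mcm5 (7.44 CPM). The remaining values were Ccnd2 in CD fast 1 (6.18 CPM, highest), Cdk4 in CD fed 1 (28.8 CPM, highest), Mcm2 in CD fed 1 (3.86 CPM, lowest) and Tyms in HFD fed 1 (7.73 CPM, highest).

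The interaction test called a different fasting response between diets for Ccnd2 (0.79 on the log2 scale, HFD minus CD) and Ccnd3 (-0.86). Neither call was firm, as both were lost with the replicate block, without both HFD libraries numbered 4 and in most fits that left out 1 library.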

How the results depend on the processing

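The alternatives were tallied for part of the member results, not for every gene in each comparison. Members outside the tally also changed sign. Without both HFD libraries numbered 4 the replication genes below 0 went from 4 to 6 of 12 in HFD fasting. They went from 2 to 6 for HFD in fasted livers and from 1 to 5 for the interaction. No called value in the tally changed sign under any alternative run. Among tallied values that were called in neither fit 52 changed sign, in 24 results. Without both HFD libraries numbered 4 the tallied log2 values that did were -0.12 for Ccnd2, -0.13 for Top2a and -0.23 for Aurka in HFD fasting. For HFD in fasted livers they were -0.17 for Mcm2, -0.23 for Mcm4, -0.18 for Ccna2 and -0.28 for Ccnb2. For the interaction they were -0.053 for Rrm2 and -0.036 for Cdk1. With scaling by total counts they were 0.050 for E2f1 in HFD fasting, 0.040 for Ccna2 for HFD in fed livers and 0.067 for Cdk6 in fasted livers. The other tallied sign changes came from leaving out 1 library. In CD fasting the values ranged from -0.30 to 0.083 for Ccne1 and from -0.25 to 0.32 for Mcm3. In HFD fasting they ranged from -0.060 to 0.12 for Ccnd2, -0.069 to 0.10 for Ccnd3, -0.30 to 0.14 for E2f1, -0.94 to 0.25 for Mki67, -0.62 to 0.64 for Top2a, -1.63 to 0.11 for Ccnb1, -0.27 to 0.37 for Aurka and -1.13 to 0.091 for Bub1. For HFD in fed livers they ranged from -0.56 to 0.16 for Ccna2, -1.19 to 0.0024 for Ccnb1, -0.72 to 0.041 for Ccnb2 and -0.74 to 0.085 for Aurkb, and in fasted livers from -0.17 to 0.77 for Mcm2, -0.23 to 0.51 for Mcm4, -0.18 to 0.90 for Ccna2 and -0.28 to 0.72 for Ccnb2. For the interaction they ranged from -0.049 to 0.17 for Cdk6, -0.082 to 0.17 for Rrm2, -0.15 to 1.23 for Ccna2, -0.082 to 1.19 for Ccnb2 and -0.14 to 0.69 for Cdk1.

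Beside these, in the same tally, leaving out single libraries kept 1533 results on their side of the threshold, with 94 weaker and 13 stronger. The other settings kept 801, with 26 weaker and 19 stronger. In CD fasting (17 members called) a minimum mean of 100 counts left 7, as it removes most mitosis genes, and leaving out 1 library gave 13 to 18. In HFD fasting (5 called) DESeq2 gave 8, limma-voom 3, no filter on low counts 3 and a fit of only the groups compared 2, and leaving out 1 library gave 2 (without CD fed 2, 3 or 4, CD fast 4, HFD fed 1 or 3, HFD fast 1 or 3), 3 (without CD fast 1, HFD fed 2 or 4) and up to 7 (without HFD fast 2). For HFD fed against CD fed (1 called) DESeq2 and limma-voom gave 2, a mean of 100 counts 0, since Ccne1 is then not tested, and the fit without both HFD libraries numbered 4 gave 4, with 1 to 2 on leaving out 1 library (2 without HFD fed 2 or HFD fast 2). For HFD fast against CD fast (3 called) DESeq2 and scaling by total counts gave 6, a mean of 100 counts 1, the fit without both libraries numbered 4 gave 1 and only the groups compared 0, with 1 (without CD fast 1, CD fast 2 or HFD fast 4) to 5 (without HFD fed 4). For the interaction (2 called) scaling by total counts and the fit without both libraries numbered 4 each gave 1, with 0 (without CD fed 1, 2 or 4, CD fast 4, HFD fed 1 or 3, HFD fast 3 or 4), 1 (without CD fed 3, CD fast 2 or 3, HFD fed 2, HFD fast 2) and up to 5 (without HFD fed 4). Where not stated, the cause was not tested.

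Deviations of same-numbered libraries correlated by over 0.1 in 8 of 24 pairs, from -0.24 to 0.66, and 9 best matches had the same number. These values cannot settle whether replicate numbers pair the libraries. Between CD fed and CD fast every library matched best with its own number, at 0.05 to 0.11, a hint from the data and not the design, and HFD fed 4 with HFD fast 4 gave the 0.66. With the replicate block the calls were 18 in CD fasting, 3 in HFD fasting, 1 in HFD fed, 3 in HFD fast and 1 for the interaction. It added Birc5 in CD fasting, lost Mcm2, Mcm3 and Mcm4 and added Cdk1 in HFD fasting, and lost Ccnd2 and Ccnd3 and added Top2a for the interaction.

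Over all genes, DESeq2 called 1768 against 1131 for HFD in fed livers, 1967 against 1161 in fasted livers and 1079 against 390 for the interaction, where leaving out both libraries numbered 4 left 645 in fasted livers and 226 for the interaction. The shares of all genes set beside the members also moved when 1 library was left out. In HFD fasting 505 genes (3.31%) were called without HFD fed 1, 865 without HFD fed 2, 802 without HFD fed 3, 732 without HFD fast 1 and 707 without HFD fast 3, against 1335, and the highest count was 1533. For HFD in fed livers they were 514 (3.37%) without CD fed 2, 741 without CD fed 1, 739 without HFD fed 1 and 567 without HFD fed 3. In fasted livers they were 535 (3.51%) without HFD fast 4, 553 without HFD fast 3, 721 without CD fast 1 and 705 without CD fast 2. For the interaction they were 147 (0.96%) without CD fed 2 and 162 to 246 without CD fed 1, CD fast 2, HFD fed 1, 2 or 3, or HFD fast 3 or 4. In fasted livers a fit of only the groups compared called 90, and scaling by total counts called 2101, with 88.1% higher in place of 39.6% and a median shift of 0.17. That scaling also moved the share of higher calls from 54.4% to 44.3% in CD fasting, from 54.0% to 67.6% in HFD fasting, from 43.8% to 68.8% for HFD in fed livers and from 47.4% to 69.5% for the interaction. Depth limits Bub1, Cdc6, Aurkb and Ccnb1, with 3 counts or fewer in a library.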
